A study of Rattus norvegicus with 16 samples.

Results

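The genes described here build the axoneme of the motile cilium. They were chosen by name: every gene on the array whose rat symbol starts with Dnah, Dnai, Rsph, Tekt or Cfap, together with Foxj1 and Nme8. This gave 43 genes of 15162 with a symbol on the array. They comprise 1 Dnah, 5 Dnai, 5 Rsph, 7 Tekt and 23 Cfap genes, Foxj1 and Nme8. The reference gene table holds 83 genes under the same names, and the other 40, among them 12 of 13 Dnah heavy chains, are not analysed here.

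The tissue was epididymal white adipose tissue, the fat pad that lies along the epididymis, from male rats of 30 days with free access to food. HFT animals were offspring of dams fed a high-fat diet and given 25 mg per kg body weight of GSPE, a grape seed procyanidin extract, daily in low-fat condensed milk through pregnancy and lactation. HF animals were offspring of dams on the same high-fat diet that received the milk alone. Both groups ate their mothers' diet after weaning, and each held 8 animals, with 1 animal's total RNA on each 1-colour Agilent array. Litters are not given in the labels, and the p-values take every animal as independent. Levels are log2 of the processed spot signal minus the 75th percentile of the array, so a level of 0 is that percentile, and levels of different genes are not set against each other.

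The 75th percentile signal lay between 753 and 1366, and 68.2% to 73.5% of probes were well above background on an array. All 10 measured adipocyte markers were above background on every array. Some arrays also carried markers of neighbouring tissues. On 3 arrays, HFT 28, HFT 23 and HF 8, the median of 10 markers of efferent duct and male duct epithelium exceeded that of the median array by 6.51, 5.65 and 6.37 log2 units. On the other 13 arrays it lay at most 2.30 units above it (HF 9), with HFT 27 next at 1.39. The summed log2 level of these 10 markers ranged from -59.0 to -7.95 in HFT animals and from -58.9 to -9.08 in HF animals. All 10 were above background on each of these 3 arrays, but also on HF 35, and 5 of the 10 were so on every array. That count alone does not set the 3 arrays apart. Urothelial markers stood 7.03 and 8.16 units above the median array on HFT 22 and HFT 24, and 8.06 units above it on HF 35.

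Motile cilia beat because dynein motors slide the paired outer microtubules of the axoneme against each other. Heavy chains carry the motor and intermediate chains tie it to the microtubule. Radial spokes relay signals from the central pair to the dyneins, tektins run as filaments inside the microtubule doublets, and many of the Cfap proteins line the inside of those doublets. Foxj1 is the forkhead transcription factor that switches on this gene set in cells that make motile cilia. The efferent ducts, which join the testis to the epididymis, are lined in part by cells with many motile cilia, whereas fat cells have none.

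Foxj1 together with RFX factors is known to drive ciliary genes through sites near their start, so promoter windows are shown for members that carry such letters. The windows come from RefSeq (build GRCr8) and run from 250 bases before to 50 bases after the gene's start, on the strand of the gene. Of the members, 35 matched the promoter table, 23 of 29 that follow Foxj1 by the rule below (Foxj1 among the 29) and 12 of 14 that do not. Capitals mark GTTGCC, the core of the RFX factors' X-box, the forkhead letters TGTTTAC or TGTTTGC, or their reverse complements, and in Dnai2 and Tekt2 a 13-base element that ends in that core. The first 4 genes were high on the 3 duct-marked arrays, and Tekt3 is shown as a family member that was not. Their windows are chr10:100258772-100259071 on the plus strand for Dnai2, chr10:57479072-57479371 on the minus strand for Tekt1, chr5:143907675-143907974 on the minus strand for Tekt2, chr10:14992034-14992333 on the plus strand for Tekt4 and chr10:48228609-48228908 on the plus strand for Tekt3.
Dnai2: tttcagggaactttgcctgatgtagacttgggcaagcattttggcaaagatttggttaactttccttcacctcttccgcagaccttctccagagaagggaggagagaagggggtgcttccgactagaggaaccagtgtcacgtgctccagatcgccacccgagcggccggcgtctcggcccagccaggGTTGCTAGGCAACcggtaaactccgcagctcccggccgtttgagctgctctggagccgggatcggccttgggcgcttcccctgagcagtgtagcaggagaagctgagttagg
Tekt1: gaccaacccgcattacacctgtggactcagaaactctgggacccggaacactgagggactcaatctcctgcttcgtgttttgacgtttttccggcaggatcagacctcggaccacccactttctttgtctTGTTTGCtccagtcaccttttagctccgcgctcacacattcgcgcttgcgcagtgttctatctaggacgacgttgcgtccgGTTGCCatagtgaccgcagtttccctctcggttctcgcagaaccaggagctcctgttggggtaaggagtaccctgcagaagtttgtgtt
Tekt2: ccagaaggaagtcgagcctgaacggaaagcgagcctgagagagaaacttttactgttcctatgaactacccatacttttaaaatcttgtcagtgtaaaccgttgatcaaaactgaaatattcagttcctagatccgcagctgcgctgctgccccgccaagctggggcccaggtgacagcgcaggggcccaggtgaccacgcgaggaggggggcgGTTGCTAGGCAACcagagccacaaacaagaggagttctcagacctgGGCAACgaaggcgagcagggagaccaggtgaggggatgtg
Tekt4: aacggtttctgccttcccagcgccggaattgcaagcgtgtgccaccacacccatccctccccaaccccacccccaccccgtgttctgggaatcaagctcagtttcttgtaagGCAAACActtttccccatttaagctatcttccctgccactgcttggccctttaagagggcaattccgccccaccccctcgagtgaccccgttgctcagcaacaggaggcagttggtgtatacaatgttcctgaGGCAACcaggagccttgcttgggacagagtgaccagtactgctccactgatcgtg
Tekt3: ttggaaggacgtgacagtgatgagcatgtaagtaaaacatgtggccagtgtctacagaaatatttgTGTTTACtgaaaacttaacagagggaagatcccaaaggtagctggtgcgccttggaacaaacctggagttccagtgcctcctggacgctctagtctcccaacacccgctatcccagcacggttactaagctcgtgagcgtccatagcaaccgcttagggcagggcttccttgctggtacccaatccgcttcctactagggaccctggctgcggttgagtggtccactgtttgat

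Dnai2 and Tekt2 hold the same element GTTGCTAGGCAAC, starting 62 and 36 bases before the start. It was noticed in these windows after the levels were known. The letters were cut from the Dnai2 window, as the 13 bases that end with its core, so Dnai2 holds them by construction. The count among followers below includes Dnai2 and is no test. Read on either strand it occurs in 17 of 27457 promoters of the table (0.0619%), in 2 of the 23 promoters of members that follow Foxj1 and in 0 of the other 12. The core alone occurred in 6 of the 23 (26.1%) and in 5 of the 12 (41.7%), against 12.2% of all promoters. Forkhead letters occurred in 2 of the 23 (8.70%), Tekt1 and Tekt4, and in 2 of the 12 (16.7%), Tekt3 and Cfap20, against 8.33% of all promoters. The full X-box with a 2-base spacer, searched on both strands and overlapping the core, was in 1 of the 23 (Cfap298), in 1 of the 12 (Cfap20dc) and in 0.459% of all promoters. Both the core and the forkhead letters were in a smaller share of the members that follow Foxj1 than of those that do not. The 12 include genes above background on no array, whose following could not be judged. Of these, Cfap20dc and Tektl1 hold the core. A match of letters is not a binding site.

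The regulator Foxj1 was high on exactly the 3 arrays marked by duct genes. Its level was 1.28 on HFT 28, -0.66 on HFT 23 and 0.78 on HF 8. The next were HFT 27 at -3.98, HFT 24 at -5.84 and HF 35 at -6.36, and these 6 were the only arrays on which it was above background. The other 10 arrays lay between -6.93 and -8.40. In a mixed tissue, fewer cells of a type and less RNA per cell cannot be told apart. Because the arrays fall into separate clusters on Foxj1, no correlation over all 16 is given. A correlation served only to sort the members: those with a Pearson r of at least 0.7 with Foxj1 and above background on at least 1 array are called followers.

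Besides Foxj1, 28 of the other 42 members followed it: Dnah1, all 5 Dnai genes, 4 of 5 Rsph, 3 of 7 Tekt and 15 of 23 Cfap genes. Of 12798 genes above background on at least 1 array, 8.92% passed the same rule. All 28 were above background on each of the 3 duct-marked arrays, 12 of them on all 16 arrays and 6 on those 3 alone. In 27 of the 28, all but Cfap418, these 3 arrays held the highest levels, against 7.3% of all genes, and in 26 the order was HFT 28 over HF 8 over HFT 23. The exceptions in order were Dnai4 and Cfap45, with HF 8 above HFT 28. The gap, here the lowest of the 3 arrays minus the highest of the other 13, exceeded 1 log2 unit in 20 of the 28, against 2.6% of all genes. The gap had a median of 1.91 and ran from -0.0034 (Cfap418) to 3.59 (Cfap276). Order and gap are read from the same levels as the sorting and so describe it; they are no test of it.

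**Figure D1:**
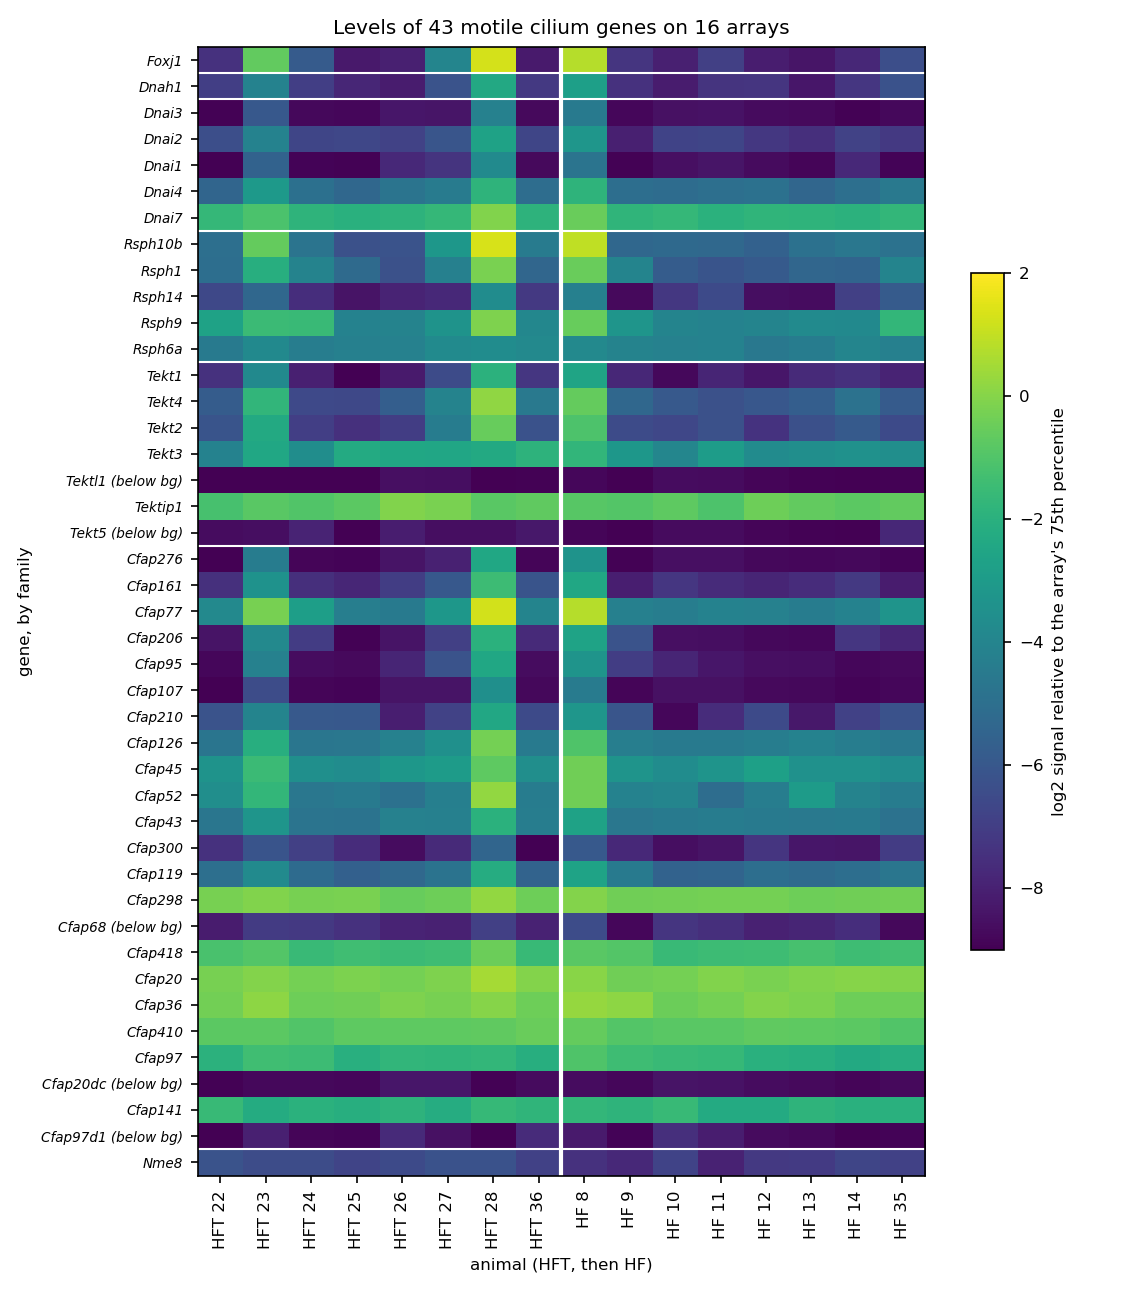
Log2 level, relative to the 75th percentile of the array, of all 43 genes (rows, grouped by family) on the 16 arrays (columns, HFT left of HF); genes above background on no array are marked "below bg". The columns of HFT 23, HFT 28 and HF 8 are brighter than the rest for Foxj1, Dnah1, the Dnai rows, Rsph10b, Rsph1, Tekt1, Tekt2, Tekt4 and most Cfap rows, and not for Tekt3, Tektip1, Cfap141, Cfap410 or Nme8.

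Dnah1, the heavy chain of an inner arm dynein and the only heavy chain measured, had a lowest, median and highest level of -8.15, -6.97 and -2.38 in HFT animals and of -8.31, -7.32 and -2.78 in HF animals. The highest animals were HFT 28 and HF 8, followed by HFT 23 at -4.12. The next highest array was HFT 27 at -6.19, a gap of 2.07, and 6 arrays were above background.

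All 5 intermediate chain genes followed Foxj1. Dnai1 and Dnai2 belong to the outer dynein arm, Dnai3 and Dnai4 to inner arm dyneins, and Dnai7 is an axonemal dynein-associated protein. Dnai1 stood at -3.74 on HFT 28, -5.53 on HFT 23 and -4.75 on HF 8, and Dnai3 at -4.15, -5.95 and -4.47 on the same arrays. Both were above background there and on no other array, with gaps of 1.83 and 2.38. Dnai2 was at -2.68, -4.11 and -3.24, and at most -6.09 elsewhere, a gap of 1.98. Dnai4 was above background on all 16 arrays, at -1.86, -3.05 and -1.83 on the 3 arrays and between -5.42 and -4.44 on the rest. Dnai7 was also above background everywhere, and its gap of 0.56 was the smallest of the family: its levels were -0.09 on HFT 28, -1.11 on HFT 23 and -0.52 on HF 8, against -2.04 to -1.67 on the others.

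Among radial spoke genes, Rsph10b had a level of 1.32 on HFT 28, -0.59 on HFT 23 and 0.95 on HF 8, and the highest other array was HFT 27 at -3.17. Rsph1, a spoke head protein, was at -0.23, -2.12 and -0.51 on these arrays and at most -4.03 elsewhere (HF 9). Their gaps were 2.58 and 1.91. Rsph14 was near background, with -3.65, -5.32 and -4.21 on the 3 arrays, -5.83 on HF 35 and a gap of 0.51. Rsph9, another head protein, had the smallest gap of the Rsph followers, 0.02. It was at -0.12, -1.52 and -0.54 on the duct-marked arrays, and at -2.67 on HFT 22, -1.54 on HFT 24 and -1.73 on HF 35, the 3 arrays that carry urothelial markers. The remaining 10 arrays lay between -4.12 and -3.29. Whether urothelial RNA holds Rsph9 was not tested. Rsph6a, the spoke head protein typical of sperm, did not follow: its levels spanned -4.52 to -3.64 in HFT animals and -4.59 to -3.82 in HF animals, and those of the duct-marked arrays were -3.64, -3.79 and -3.82.

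Tektins divided. Tekt1 was at -1.92 on HFT 28, -3.77 on HFT 23 and -2.60 on HF 8, and at most -6.49 on any other array. Tekt2 was at -0.54, -2.32 and -1.09 on these arrays, and at most -4.40 elsewhere. Tekt4 stood at 0.17, -1.77 and -0.61, against at most -4.07 elsewhere. The highest other array was HFT 27 for all of them, and the gaps were 2.72, 2.08 and 2.30. Tekt3 did not follow. Its lowest, median and highest levels were -4.13, -2.46 and -1.88 in HFT animals and -3.94, -3.49 and -1.75 in HF animals, and the highest animals were HFT 36 and HF 8. Tektip1, which binds the tektin bundle, was above background on every array and spanned -1.22 to -0.09 in HFT animals and -1.06 to -0.42 in HF animals. Tekt5 and Tektl1, both known from sperm flagella, were above background on no array.

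The 15 Cfap followers held both the widest and the narrowest separations. Cfap276, an inner doublet protein, had levels of -2.46 on HFT 28, -4.40 on HFT 23 and -3.33 on HF 8, against at most -7.99 on the rest, where it was not above background. Cfap77 and Cfap161, also doublet proteins, had gaps of 2.56 each, and Cfap206, a radial spoke base protein, had one of 2.38. Cfap77 was above background everywhere, at 1.26, -0.25 and 0.76 on the 3 arrays and at -4.45 to -2.81 on the others. Cfap95, a doublet protein above background on the 3 arrays alone, was at -2.44, -4.17 and -3.30 there and at most -6.21 elsewhere. Cfap126 (also known as Flattop), which lines the doublets too, had a level of -0.29 on HFT 28, -2.10 on HFT 23 and -1.02 on HF 8, a gap of 1.38. The other 9 Cfap followers had gaps from -0.0034 to 1.97. Of the doublet proteins among them, Cfap107 was above background on the 3 arrays alone, at -3.50 on HFT 28, -6.43 on HFT 23 and -4.44 on HF 8. Cfap210 was at -2.40, -4.03 and -3.24 on these arrays and at most -5.94 elsewhere (HFT 24). Cfap52 was at 0.20, -1.71 and -0.41 on them, and its highest other array was HF 13 at -2.95. Cfap45 was at -0.71, -1.48 and -0.38, against at most -2.73 elsewhere (HF 12). Cfap52 and Cfap45 were above background on all 16 arrays, including the 10 on which Foxj1 was not. Cfap43, which helps tether inner arm dyneins, stood at -1.98, -3.27 and -2.67, against -4.87 to -4.15 on the rest. Cfap119 stood at -2.21, -3.73 and -2.64, with HF 9 next at -4.46. Cfap300, a dynein assembly factor, was dim throughout: its 3 high arrays were at -5.41, -6.16 and -5.91 and its next, HFT 24, at -6.92. Cfap298, also a dynein assembly factor, and Cfap418, a protein of the ciliary base, were followers by the rule with little change in level: Cfap298 spanned -0.54 to 0.23 in HFT animals and -0.44 to -0.04 in HF animals. Cfap418 spanned -1.59 to -0.46 in HFT animals and -1.56 to -0.80 in HF animals, with HF 9 (-0.94) between HF 8 and HFT 23.

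The 9 members above background that did not follow were Cfap20, Cfap36, Cfap97, Cfap141, Cfap410, Rsph6a, Tekt3, Tektip1 and Nme8. Apart from Nme8, each was above background on all 16 arrays. Their gaps ran from -1.27 to -0.013, so in none were the 3 duct-marked arrays all above the rest. Cfap20, at the inner junction of the doublet, came nearest to following by its gap, with levels of 0.52 on HFT 28, -0.03 on HFT 23 and 0.04 on HF 8, against -0.38 to -0.02 on the others. Cfap36, which binds a ciliary transport GTPase, was at 0.02, 0.13 and 0.24 on those arrays, and HF 9 reached 0.13. Cfap141, an inner doublet protein, spanned -2.23 to -1.59 in HFT animals and -2.29 to -1.61 in HF animals. Cfap410, a protein of the ciliary base, spanned -0.97 to -0.52 and Cfap97 -2.08 to -1.37 in HFT animals, against -0.98 to -0.60 and -2.31 to -1.04 in HF animals. The 5 members above background nowhere were Cfap20dc, Cfap68, Cfap97d1, Tekt5 and Tektl1.

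**Figure D2:**
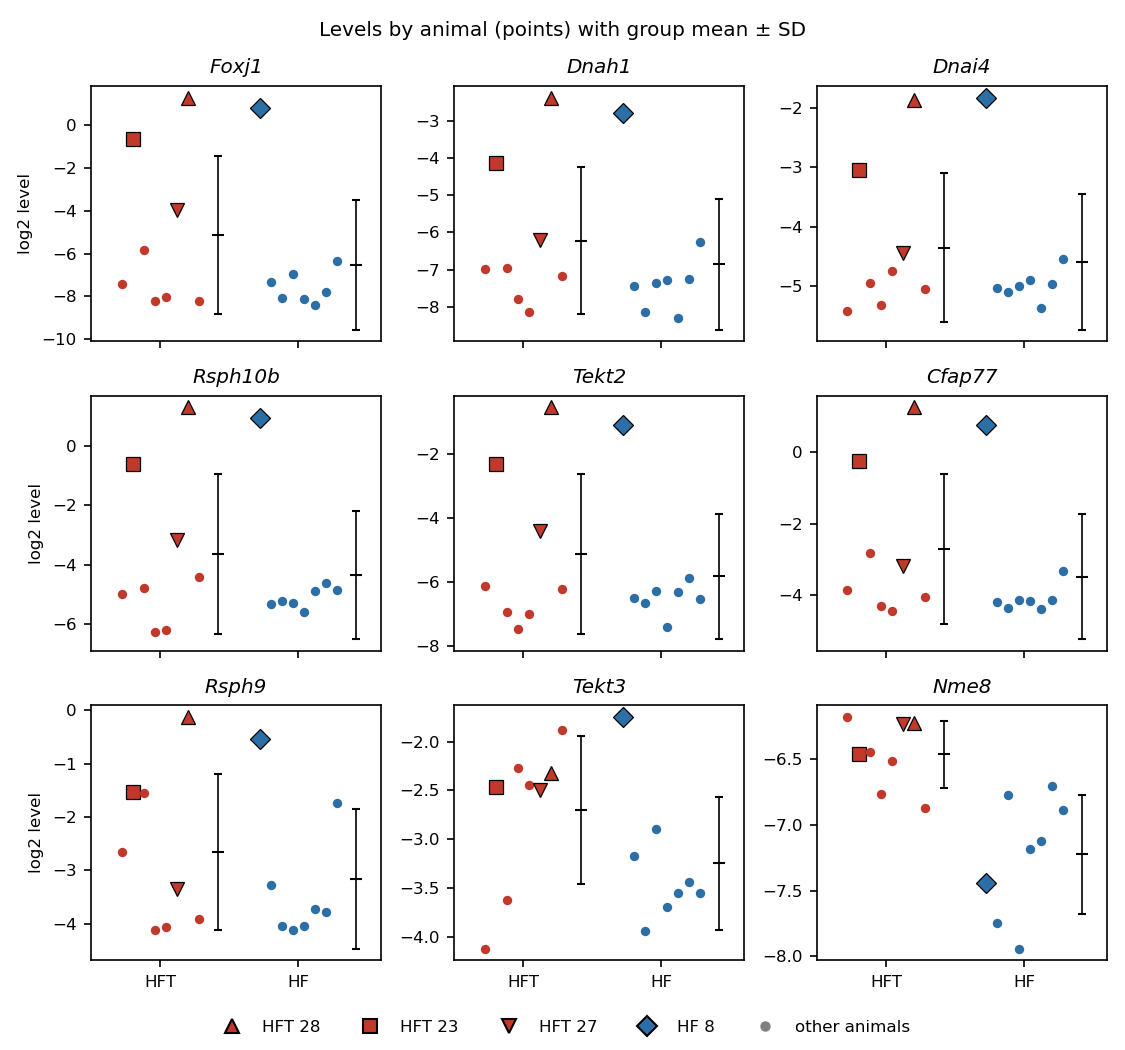
Log2 level of 9 genes by animal (points, HFT left in red and HF right in blue, each panel with its own axis) with the group mean and SD (bars, n = 8 each). Triangle, square and diamond mark HFT 28, HFT 23 and HF 8, which stand above the other animals for Foxj1, Dnah1, Dnai4, Rsph10b, Tekt2 and Cfap77; in the Rsph9 panel HFT 24 lies beside HFT 23, in the Tekt3 panel HF 8 is the highest animal while HFT 28 and HFT 23 lie among the others, and in the Nme8 panel HF 8 lies among the lower animals.

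HFT 27 came next after these arrays. Of the 13 other arrays it held the highest level of 12 of the 28 followers, and HF 9 and HFT 24 held it for 4 each. The number of followers above background was 19 on HFT 27, against 13 to 17 on the other 12 and 28 on the duct-marked arrays. HF 9 carried some other duct markers, with Lrp2 at -2.35 and Cdh16 at -2.41. It held the highest level of all arrays, duct-marked ones included, for Ces5a (3.68), Wfdc10a (4.08) and Spink8 (3.55). It did so too for Crisp1 (-5.48), which was above background on 1 array. Others were not raised there, with Cubn at -4.09, Slc9a3 at -7.46 and Lcn5 at -4.98. The list medians of HF 9 lay above those of the median array by 2.30 (efferent and male duct) and 0.42 (epididymal duct) log2 units. Foxj1 was not above background on HF 9 (-7.32). Over these 13 arrays, Cfap77 (Pearson r 0.84, Spearman rho 0.71) and Dnah1 (0.77 and 0.70) tracked Foxj1 at r of 0.7 or more, and 0.78 and 0.74 without HFT 27 and HFT 24. For the other 26 followers r was below 0.7 over the 13, and without HFT 27 and HFT 24 Rsph9 reached 0.72. These are descriptions, and Foxj1 was above background on only 3 of the 13. Between duct-marked arrays, HFT 28 exceeded HFT 23 in all 28, by 0.33 to 2.93 log2 units with a median of 1.74.

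Most motile cilium genes outside the naming rule were high on the same arrays. Of 77 listed, 53 had a probe and 52 were above background somewhere. In 39 the rule for following was met and in 37 the 3 duct-marked arrays were highest; the median gap of those 37 was 1.47. Dnaaf6, a dynein assembly factor, had the widest gap at 3.98, at -2.47 on HFT 28, -4.48 on HFT 23 and -2.99 on HF 8. Deup1, which makes the many basal bodies of multiciliated cells, was above background on these 3 arrays alone, at -3.66, -5.52 and -4.12. Sntn, found at the tips of cilia, was at 0.28, -1.35 and -0.12, against at most -4.23 elsewhere. Non-followers included Rfx2, a transcription factor of ciliary genes (-0.88, -1.33 and -0.71 on these arrays, -1.91 to -0.74 on the others), Tppp3, Spef1 and Dynll1, a light chain shared with cytoplasmic dynein. Genes of the primary cilium and of transport within cilia separated far less. Of 32 measured, 31 were above background on every array, and 18 reached r of 0.7, against 8.92% of all genes. In 17 (53.1%) the 3 duct-marked arrays were highest, against 7.3% of all genes, but the gaps on this list were at most 0.36 log2 units.

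**Figure D3:**
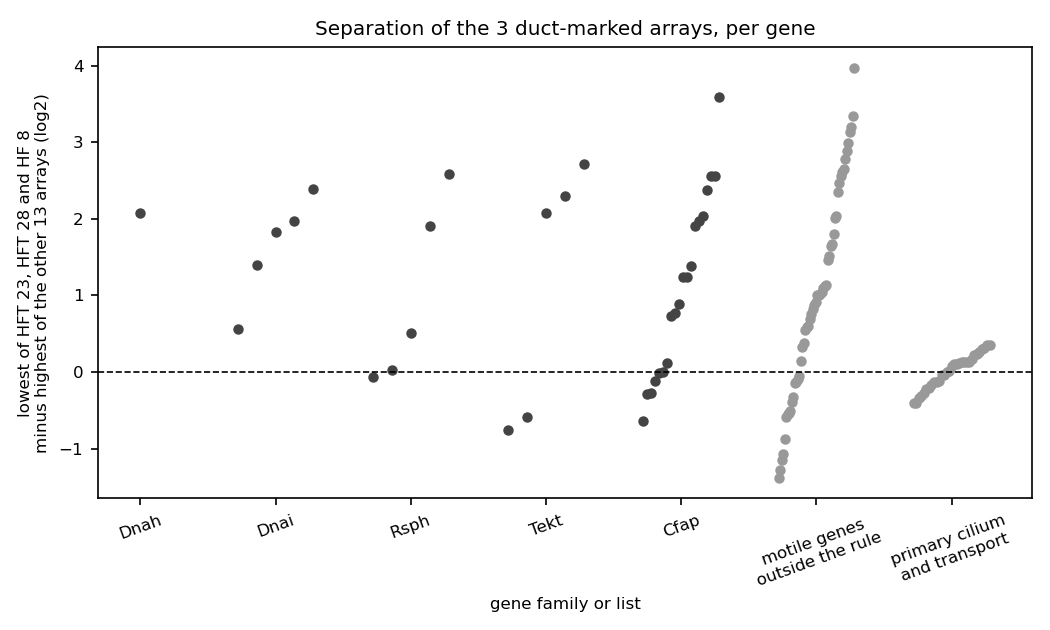
Gap per gene (vertical axis, log2 units), the lowest level among HFT 23, HFT 28 and HF 8 minus the highest among the other 13 arrays, for members above background on at least 1 array by family and for 2 lists outside the naming rule; above the dashed line the 3 arrays are all highest. Ift27, at -3.41 on HFT 28 and 1.69 to 2.10 on the other 15 arrays, falls below the axis and is left out. Motile genes reach 3.98, and primary cilium and transport genes stay at or below 0.36.

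Sperm flagella use many of the same genes, so sperm markers are given beside them. Of 14 sperm and spermatid markers, 6 (Tnp1, Tnp2, Odf1, Akap4, Acrv1 and Pgk2) were above background on no array, and 3 were on all. The list median exceeded that of the median array by 1.44 log2 units on HFT 23 and on HF 14, and by 1.12 on HFT 27. It stood at -0.38 relative to that array on HFT 28 and at 0.07 on HF 8. Single markers differed from that median: Ldhc, the lactate dehydrogenase of sperm, was at -3.21 on HFT 23, -3.49 on HFT 28 and -5.04 on HF 8. Over 9 measured markers of earlier germ cells, the median stood 1.37 units above the median array on HFT 23. It stood 0.78 above on HFT 28, 0.68 on HF 8, 0.87 on HF 14 and at most 0.23 elsewhere. Of these 9 markers 3 were above background on no array, while Tex101 was at -4.58 on HFT 23, -4.27 on HFT 28 and -4.80 on HF 8. Tex101 was at most -5.90 on the other arrays. The part of germ cells in the members' levels was not tested.

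Of 12218 genes outside the members and lists, set against Foxj1 by Pearson r over the 16 arrays, the 10 most alike were Padi2, Gjb2, Fam227a, Slc30a2, Cldn24, Pou2af1, Aldh1a1, Drc12, C14h7orf57 and Tmem174. Padi2, a peptidylarginine deiminase, was at 2.38 on HFT 28, 1.38 on HFT 23 and 2.06 on HF 8, with a gap of 5.57. Gjb2, a gap junction connexin, and Tmem174 had gaps of 4.38 and 4.84. HFT 27 was the highest of the other 13 arrays for 9 of the 10, the exception being Aldh1a1, a retinaldehyde dehydrogenase, with HFT 24.

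The comparison of HFT with HF asks whether offspring of dams given the extract differed in these genes. No member was called. Across 21808 probes kept for the test, those that 4 or more of a group's 8 arrays showed above background, limma called 0 (0%) at an adjusted p under 0.05, and 515 (2.36%) had an unadjusted p under 0.05. Of the 43 members 28 were kept, and 10 of the 15 left out were followers. The smallest adjusted p of a kept member was 0.999994 in limma's test.

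Foxj1 averaged -5.14 ± 3.70 in HFT animals and -6.52 ± 3.03 in HF animals (SD, n = 8 each), a difference of 1.39 with a standard error of 1.58. Its lowest, median and highest levels were -8.23, -6.64 and 1.28 in HFT animals, against -8.40, -7.55 and 0.78 in HF animals. The groups overlapped over nearly their whole range. Without the 3 duct-marked arrays the difference was 0.61 (SE 0.65) in the fit with no filter, and without HF 8 alone it was 2.43. No value is given without HFT 28 or HFT 23 alone, since Foxj1 then failed the filter. Within the slides, each of which held 2 animals of both groups, the difference was -0.78, 0.46, 4.90 and 0.97. Slide 1 held HFT 23 and HF 8, and slide 3 held HFT 28.

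Of the 28 kept members 26 had a difference above 0 and 2 below, where 43.8% of all kept probes were above 0. Their median was 0.27 log2 units and that of all kept probes -0.016. The filter bears on this count: 5 members (Foxj1, Nme8, Dnai2, Cfap161 and Tekt2) passed it through HFT animals alone and 0 through HF animals alone. Of the 20 members above background on all 16 arrays, 18 were above 0 and 2 below. HFT held 2 of the 3 duct-marked arrays and HF 1. Over the same 28 members the median was 0.027 without HFT 28, 0.15 without HFT 23 and 0.65 without HF 8. With all 3 left out it was 0.079, 20 were above 0 and 8 below. With the filter reapplied to the 13 remaining arrays, 24 members were kept, and limma called 1 of 21334 probes (0.00469%) and 0 members. In limma's fit to these arrays with no filter, 2.39% of 30344 probes had an unadjusted p under 0.05. So did 3 of the same 28 members, Nme8, Dnai2 and Cfap161. All of these are among the 5 that passed the filter through HFT animals alone, so that count is no test against the share of all probes. Within slides 1 to 4 the median was -0.32, -0.044, 1.33 and 0.25. The 18 kept followers had a median of 0.45, and of 0.10 without the 3 arrays.

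Nme8, a thioredoxin and nucleoside kinase protein tied to outer dynein arms, had the smallest unadjusted p of the members (0.00051) and was the only one under 0.05, where 1.13% of all probes were under it and higher in HFT and 1.23% were under it and lower. Its lowest, median and highest levels were -6.87, -6.45 and -6.18 in HFT animals, against -7.94, -7.15 and -6.71 in HF animals. HF 10 and HF 14 lay within the range of the HFT animals, and the other 6 HF animals below it. The difference was 0.76 (SE 0.18, adjusted p = 0.999994, limma) and 0.69 (SE 0.21) without the duct-marked arrays. It was above 0 within each slide, at 1.28, 0.75, 0.78 and 0.24. The gene was above background on 7 HFT arrays and 2 HF arrays. With normexp background correction the difference was -0.00047, and in the authors' deposited table it was 0.31. Group cannot be told apart from slide position, since HFT animals lay at positions 3 and 4 and HF animals at 1 and 2 on every slide.

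Next by unadjusted p were Tekt3, Dnai2, Cfap161 and Cfap210, with an adjusted p of 0.999994 each in limma's fit. Tekt3 averaged -2.70 ± 0.76 in HFT animals and -3.25 ± 0.69 in HF animals (SD, n = 8 each). The difference was 0.55 (SE 0.34), and -0.83, 0.47, 1.24 and 1.30 within slides 1 to 4. Dnai2 averaged -5.77 ± 1.53 and Cfap161 -5.85 ± 2.26 in HFT animals, against -6.69 ± 1.46 and -7.03 ± 1.89 in HF animals. Their differences were 0.92 (SE 0.70) and 1.18 (SE 0.97). Without the duct-marked arrays, in the fit with no filter, they were 0.62 (SE 0.21) and 0.70 (SE 0.30). Of the 16 arrays only 7 (Dnai2) and 5 (Cfap161) were above background, the duct-marked ones among them. The differences of Dnai2 and Cfap161 were 0.076 and 0.30 with normexp background correction, and 0.28 and 0.65 in the authors' deposited table. Cfap210, a doublet protein, differed by 0.97 (SE 0.81), by 0.50 without HFT 28, by 1.47 without HF 8 and by 0.63 (SE 0.49) without the duct-marked arrays. Dnai2 differed by 0.48 without HFT 28 and 1.41 without HF 8, and Cfap161 by 1.84 without HF 8. No value is given for Cfap161 without HFT 28, since it then failed the filter. The 2 members below 0 were Cfap36 at -0.042 (SE 0.12) and Cfap97 at -0.00011 (SE 0.17).

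**Figure D4:**
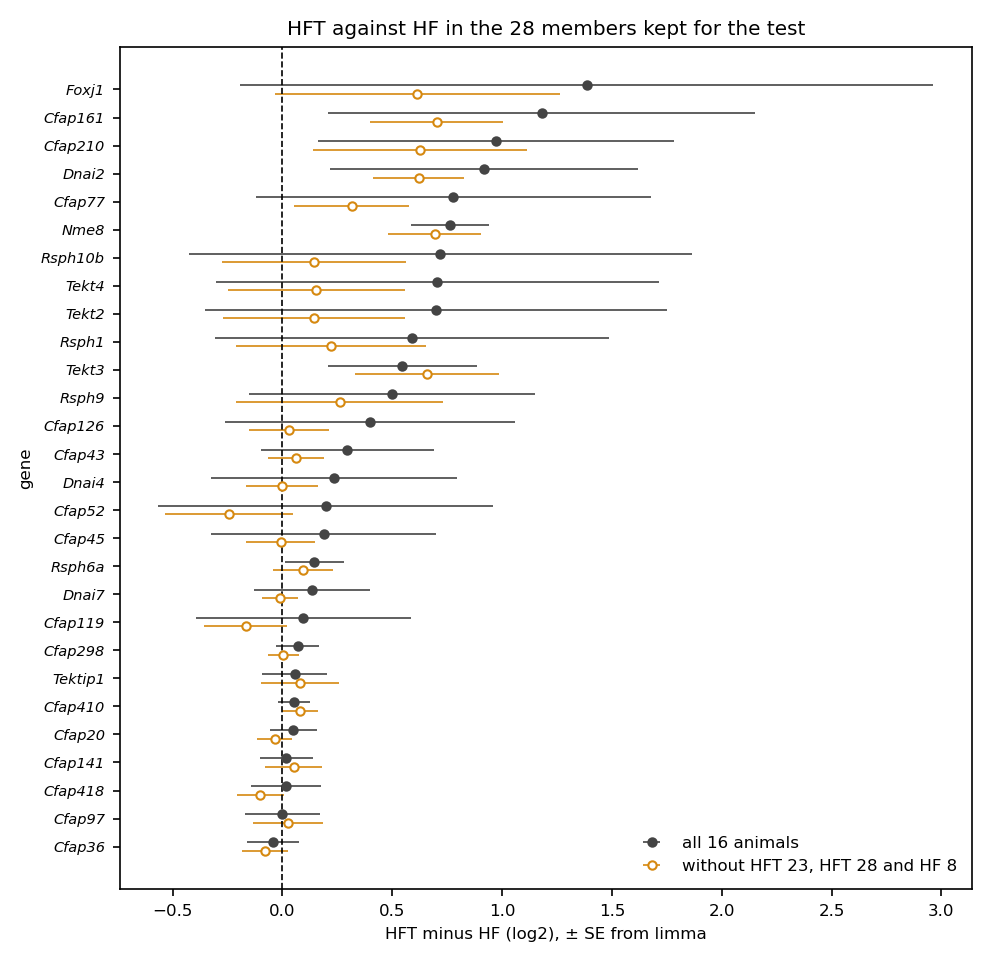
HFT minus HF (horizontal axis, log2 units, with limma's standard error as bars) for the 28 kept members, over all 16 animals (filled) and without HFT 23, HFT 28 and HF 8 (open). Foxj1 lies at 1.39 and 0.61; bars of most members span 0, and no member has an adjusted p under 0.05.

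Of 37 kept motile cilium genes outside the naming rule, 0 were called, 0 had an unadjusted p under 0.05, and 28 were above 0 with a median of 0.17, or 0.036 without the duct-marked arrays. Without those arrays 1 had an unadjusted p under 0.05, Dnal1, a dynein light chain, which differed by -0.39 (SE 0.075, adjusted p = 0.999979, limma) and by -0.19 over all animals. Of 32 primary cilium and transport genes 0 were called and 1, Ift20, had an unadjusted p under 0.05, with a median of 0.062, or -0.012 without those arrays.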

How the data were processed

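The deposited intensities are scanner values of each spot from Agilent Feature Extraction 10.7.3.1, per the submitters' processing notes, with the processed intensity background-subtracted and detrended, per the file headers, and not normalized between arrays. RNA was labelled with Cy3, per the labels' protocols. The 0 or 1 scores that mark a spot as well above background, non-uniform, an outlier or saturated are Feature Extraction's own, per the file headers. The authors' deposited table of log2 values, whose normalization the sources used here do not give, served as an alternative; its column medians lay between 7.33 and 7.36, and each column correlated best with its own array.

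Log2 processed intensities were set against the 75th percentile of each array over the spots that are not controls (4259 of 62976). Non-uniform and outlier spots were left out and replicate spots averaged, which gave 30367 probes, 23 of them dropped. Probes were named through RefSeq accessions (assembly GRCr8): 17997 had a symbol, for 15162 genes. A gene was read on its probe of highest mean level; Cfap68 alone among the members had 2 probes, neither above background. A probe counted as above background on an array where at least 0.5 of its usable spots were marked so. HFT was compared with HF by limma 3.58.1 (R 4.3.3, lmFit and eBayes, no covariate) with Benjamini-Hochberg adjustment over 21808 probes and a threshold of 0.05. Python 3.11.15, pandas 2.3.3, numpy 2.4.6 and the R package data.table (version 1.17.8) were also used. The number of arrays limits the precision, and no spot was saturated.

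Duct-marked arrays are those whose median over the efferent and male duct list lay over 3 log2 units above the median array. Genes named are Foxj1, Nme8, up to 5 members a family most like Foxj1 and up to 3 least like it, the 5 kept members of smallest p in each direction, and the 10 genes outside the lists most like Foxj1; other members are named to account for all of them, and genes named from the 2 comparison lists were chosen after their values were seen. The members and lists were chosen with earlier results of these data known. Alternatives were normexp background correction (offset 50, on the median spot intensity), quantile normalization, 2 other filters, slide as a block, the deposited log2 table, other measures of likeness and leaving out arrays.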

Additional observations from a re-analysis of the deposited data

Results flagged for a closer look

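Within the 8 HF animals, HF 8 stood far from the others for 18 of the 29 genes named by the rule, by the gap to its nearest neighbour as a share of the group's whole range (critical share 0.526 for 8 animals). No HFT animal and no other HF animal passed that share in the 58 groups looked at. Chance marks about 1 group in 20, but most of these genes were named for their likeness to Foxj1 over the same arrays, and Foxj1 is high on HF 8, so the shares describe one shared pattern and are no test of it. The share was 0.778 for Foxj1 and 0.627 for Dnah1. For the intermediate chain genes it was 0.716 (Dnai1), 0.723 (Dnai2), 0.898 (Dnai3), 0.766 (Dnai4) and 0.791 (Dnai7). Rsph1 gave 0.623 and Rsph10b 0.852. The tektins gave 0.788 (Tekt1), 0.758 (Tekt2) and 0.751 (Tekt4). The Cfap genes gave 0.935 (Cfap276), 0.87 (Cfap126), 0.824 (Cfap161), 0.794 (Cfap77), 0.668 (Cfap95) and 0.574 (Cfap206). HF 8 was the highest HF animal in each of the 18. It also carried the highest duct list median of its group, 6.37 log2 units above the median array. In the HFT group HFT 28 and HFT 23 are both high, so neither stands alone.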

How the results depend on the processing

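The number of members that follow Foxj1, 28, was 28 with normexp, 29 with quantile normalization, 29 in the authors' deposited table, 28 with the mean of all probes, 22 without the 2 arrays farthest from the Foxj1 median and 26 to 30 when each array was left out. By Spearman rho of at least 0.7 it was 7, and without the 3 duct-marked arrays it was 2. No member was called under any alternative run. Over all probes 0 were called except without the duct-marked arrays, where limma called 1 with the filter and 1 without it: Acot5, lower in HFT by -4.38 log2 units (adjusted p = 0.0107); 537 had an unadjusted p under 0.05. With slide as a block 0 were called, 736 had an unadjusted p under 0.05, and Nme8 alone of the members did. The members' median difference of 0.27 was 0.099 with normexp, 0.26 with quantile normalization, 0.35 without a filter, 0.14 over members above background on all arrays, 0.19 in the authors' deposited table, 0.056 without the duct-marked arrays with the filter reapplied and 0.080 without them and without a filter. Leaving out each array, with the filter reapplied, gave 0.0065 to 0.65. Nme8 reversed with normexp (-0.00047). Cfap97, at -0.00011, reversed to 0.0013 with normexp, 0.0041 with quantile normalization, 0.020 in the authors' deposited table and 0.025 without the duct-marked arrays, with and without the filter, and ran from -0.076 to 0.10 on leaving out each array; Cfap36 ran from -0.093 to 0.018. The causes were not tested. The alternative without arrays high on the epididymal list was not run, since 0 arrays passed its threshold of 3 log2 units above the median array. HFT 28 came close at 2.998, and HF 8 at 1.71 and HFT 23 at 1.41 were next. The duct list took its place after the data were seen. No paired analysis was possible because HFT and HF animals share no replicate number. Signal over background limits 23 members, which were not above it on every array.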

Other observations

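A few genes of the male germ line, chosen after their values were seen, were higher on some arrays outside the duct-marked ones. Ldhc had levels of -3.21 on HFT 23, -3.49 on HFT 28, -4.47 on HFT 27, -4.65 on HFT 36, -4.43 on HF 14 and -5.04 on HF 8, and at most -6.16 elsewhere. Mael, which guards the germ line against transposons, was at -4.18 on HFT 23, -5.18 on HFT 28, -5.66 on HFT 36, -6.07 on HFT 27 and -5.48 on HF 14. Meig1, needed for sperm formation, was at -4.69 on HFT 36, -4.90 on HFT 27 and -5.07 on HF 14, below its -3.11 on HFT 28, -3.22 on HFT 23 and -3.69 on HF 8. Prm3 did so too, at -4.95 on HFT 36, -5.05 on HF 14, -5.75 on HFT 27 and -5.76 on HFT 23. It was at most -6.39 elsewhere. Smcp was at -5.19 on HF 14 and -5.54 on HFT 27, but at -6.09 on HFT 36. Not all listed germ line genes did so. Of 14 sperm and spermatid markers 6 were above background on no array and 3 on all arrays, and of 9 measured markers of earlier germ cells 3 (Ddx4, Dazl and Sycp1) were on none. Prm1, a protamine, spanned -5.43 to -4.88 in HFT animals and -5.60 to -4.64 in HF animals. Spaca1, a sperm acrosome protein, was at -7.63 on HFT 36 and -5.73 on HF 14. On HFT 36 and HF 14 Foxj1 was not above background, at -8.21 and -7.78. Ift27, a transport protein, was at -3.41 on HFT 28 against 1.69 to 2.10 on the other 15 arrays, read on 1 probe.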
